A study of Mus musculus with 44 samples.

Results

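Voltage-gated sodium channel genes were followed through every library of a mouse dorsal root ganglion (DRG) study. The set holds 9 genes, chosen by symbol: the alpha subunit genes Scn1a, Scn3a, Scn8a, Scn9a, Scn10a and Scn11a and the beta subunit genes Scn2b, Scn3b and Scn4b. All 9 were listed in each of the 3 expression tables, among 45882 genes in the table of naive samples, 45882 in the table of satellite glial cells after surgery and 12170 in the neuron table. The study sequenced RNA from 44 bulk libraries in 12 groups of C57BL/6 mice to compare sorted satellite glial cells (SGCs), the glia around each sensory neuron, and isolated neurons after sciatic nerve ligation.

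Naive 9-week-old mice gave 4 libraries of SGCs from lumbar L3 and L4 ganglia, which were dissociated, fixed in 4% PFA, stained and sorted by FACS, and 4 libraries of dissociated and fixed whole DRG cells that were not sorted. Mice aged 9 to 11 weeks gave 4 libraries of SGCs, prepared the same way, 3 days after full sciatic nerve ligation, 4 at 14 days after ligation, and 4 at each of these times after sham surgery. Neurons of the L3 to L5 ganglia, isolated with a magnetic (MACS) kit and not fixed, came from mice of the same ages 8 days after surgery, with 3 libraries per sex after partial ligation and 3 per sex after sham surgery. Mice with a partial ligation and no sex given provided 4 further neuron libraries from the ligated side and 4 from the other, opposite side. The series' design text calls the isolated neurons nociceptors. The labels do not say which libraries share an animal or pool several, so p-values measure the spread between libraries.

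Voltage-gated sodium channels carry the inward current that starts and propagates the action potential. Each channel has 1 pore-forming alpha subunit, whose 4 homologous domains surround the pore, and associated beta subunits, single-pass membrane proteins that tune gating and surface expression and can act in cell adhesion. In sensory neurons Scn9a (Nav1.7) amplifies small depolarisations near threshold, Scn10a (Nav1.8) carries much of the nociceptor action potential upstroke, and Scn11a (Nav1.9) carries a persistent current near rest. Scn8a (Nav1.6) is the main channel of nodes of Ranvier, Scn1a (Nav1.1) is found in larger sensory neurons, and Scn3a (Nav1.3) is prominent in embryonic neurons and in rat DRG after axotomy. Scn2b and Scn4b link to alpha subunits by a disulphide bond, and Scn4b acts in resurgent current. Scn3b binds without such a bond.

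Some of the genes lie close together, namely Scn1a and Scn9a, Scn10a and Scn11a, and Scn2b and Scn4b. The pairs on chromosome 9 are in separate stretches, and Scn3b lies apart from both. In GRCm38, Scn3a (ENSMUSG00000057182), Scn1a (ENSMUSG00000064329) and Scn9a (ENSMUSG00000075316) are on chromosome 2 and Scn8a (ENSMUSG00000023033) is on chromosome 15. Scn10a (ENSMUSG00000034533), Scn11a (ENSMUSG00000034115), Scn3b (ENSMUSG00000049281), Scn2b (ENSMUSG00000070304) and Scn4b (ENSMUSG00000046480) are on chromosome 9. The coding sequences encode 1765 to 2009 residues for the alpha subunits, with Scn11a the shortest and Scn1a the longest, and 215 residues for Scn2b, 215 for Scn3b and 228 for Scn4b.

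Of the alpha genes, 5 are compared here over the pore loop of the first domain, because the residue after the threonine-glutamine-aspartate motif there divides channels blocked by low tetrodotoxin (aromatic residue) from those that resist it (serine), and shares are given further on for the serine-bearing pair. Each run is 45 coding bases, 5′ to 3′ on the gene's own strand, from the GENCODE M21 transcripts of GRCm38; the capitals mark the codon of that residue.
Scn3a: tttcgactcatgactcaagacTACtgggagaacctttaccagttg
Scn8a: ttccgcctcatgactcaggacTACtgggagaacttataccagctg
Scn9a: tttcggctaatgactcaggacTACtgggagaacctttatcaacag
Scn10a: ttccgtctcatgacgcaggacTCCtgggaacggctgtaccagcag
Scn11a: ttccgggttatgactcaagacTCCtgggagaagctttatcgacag
All 5 windows lie within coding exon sequence, in exon 9 of the transcript used. The codon gives tyrosine at residues 384, 371 and 362 in Scn3a, Scn8a and Scn9a, and serine at residues 356 and 358 in Scn10a and Scn11a. The windows are at chr2:65521792-65521836 for Scn3a and chr2:66548980-66549024 for Scn9a, both on the minus strand. Those of Scn10a at chr9:119666366-119666410 and Scn11a at chr9:119805659-119805703 are on the minus strand too, and that of Scn8a at chr15:100971617-100971661 is on the plus strand. Any pair of these windows shares 33 to 39 of 45 bases.

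Levels are in FPKM, which divides the fragments of a gene by its transcript length and by the total mapped in that library. The 3 tables were scaled apart, so a level is compared only within its table, whereas shares within a library are free of scaling. Each library had 10225 to 13173 genes at 1 FPKM or more; read totals were not used here. In the naive table, the level summed over 8 satellite glial markers was 16760 to 24229 FPKM in SGCs and 5996 to 9226 FPKM in DRG, and that summed over 11 neuron markers was 108 to 285 FPKM in SGCs and 2516 to 4527 FPKM in DRG. On its own scale, the table of SGCs after surgery had glial sums of 12857 to 20601 FPKM and neuron marker sums of 176 to 780 FPKM. The neuron table, again on its own scale, had neuron marker sums of 6813 to 10184 FPKM. Neuron libraries also held red cell RNA, with 297 to 18901 FPKM summed over 2 haemoglobin genes. The neuron table lists 4 of 8 satellite glial markers, which summed to 38.9 to 80.4 FPKM. It lists 4 of 6 markers of myelinating Schwann cells, which summed to 725 to 2845 FPKM. In bulk samples, fewer cells of a type and less RNA per cell cannot be told apart.

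The naive comparison asks which genes mark SGCs against the whole ganglion. In sorted SGCs, 8 of 9 sodium channel genes were lower than in DRG and 1, Scn3b, was higher, in a limma fit on log2(FPKM + 1) over all 12907 genes tested, at an adjusted p under 0.05. Of all genes tested, 44.9% passed in either direction, 27.9% lower and 16.9% higher. The DRG libraries alone could meet the filter of 1 FPKM in 4 libraries, which favoured lower calls for genes scarce in SGCs. How far the count of 8 reflects that filter was not tested. The median difference of the 9 genes was -2.75 against -0.12 for all genes, and the 2 groups did not overlap for any of the 9; they did not overlap for 43.8% of all genes tested either.

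Scn1a had 0.284, 1.56, 1.11 and 0.996 FPKM in the 4 naive SGC libraries and 31.1, 27.4, 32.2 and 17.6 FPKM in the 4 DRG libraries. All SGC libraries were far below all DRG libraries, a difference of -3.83 (SE 0.26, adjusted p = 2.11e-05 by limma), the largest drop among the 9 genes. Scn9a had 2.07, 5.70, 3.84 and 1.15 FPKM in SGCs and 34.1, 40.8, 37.5 and 28.5 FPKM in DRG, and had the highest mean of the alpha genes in both preparations. Its difference was -3.23 (SE 0.33, adjusted p = 0.000120). Scn8a, the nodal channel, was the steadiest alpha gene in SGCs, with 1.73, 1.73, 1.72 and 1.44 FPKM, against 14.8, 15.5, 12.7 and 10.03 FPKM in DRG, a difference of -2.41 (SE 0.16, adjusted p = 2.00e-05). The groups were again wholly apart.

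The tetrodotoxin-resistant pair was lower in SGCs too. Scn10a had 1.22, 2.85, 1.24 and 0.437 FPKM in SGCs and 14.6, 15.8, 13.7 and 13.3 FPKM in DRG. Scn11a had 0.408, 2.56, 1.58 and 0.229 FPKM in SGCs and 10.004, 12.5, 10.9 and 9.48 FPKM in DRG. The second SGC library was the highest and the fourth the lowest for both genes, and for Scn9a as well. The differences were -2.75 (SE 0.27, adjusted p = 0.000104) for Scn10a and -2.55 (SE 0.33, adjusted p = 0.000387) for Scn11a. Scn3a was scarce in both preparations, with 0, 0.720, 0.115 and 0 FPKM in SGCs and 1.23, 1.48, 1.70 and 1.45 FPKM in DRG. The difference was -1.06 (SE 0.20, adjusted p = 0.00291); with quantile normalization it was -0.37 (adjusted p = 0.104), and with a pseudocount of 0.1 it was -2.92 (adjusted p = 0.00995). Scn3a reached 1 FPKM in 4 of 4 DRG and 0 of 4 SGC libraries, so it entered the test through DRG alone and had to differ there. Its call adds nothing to the count of lower genes. Scn1a, Scn11a and Scn4b reached 1 FPKM in 2 of 4 SGC libraries, and Scn10a and Scn2b in 3 of 4. These genes too met the filter only with DRG libraries counted, which favoured a lower call. Scn8a, Scn9a and Scn3b reached 1 FPKM in 4 of 4 SGC libraries.

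Among the beta genes Scn3b stood alone. It had 16.6, 14.9, 17.0 and 15.0 FPKM in naive SGCs and 9.41, 10.6, 11.0 and 10.8 FPKM in DRG. Every SGC library exceeded every DRG library, by 0.56 on the log2 scale (SE 0.12, adjusted p = 0.00481), and SGC values spread by 1.14 times from lowest to highest. Scn2b had 3.18, 4.28, 1.02 and 0.363 FPKM in SGCs and 18.4, 30.3, 15.0 and 16.3 FPKM in DRG. Scn4b had 0.318, 1.39, 1.09 and 0.352 FPKM in SGCs and 17.2, 13.8, 14.3 and 11.0 FPKM in DRG. Both were lower in all SGC libraries, by differences of -2.86 (SE 0.44, adjusted p = 0.000859) and -3.11 (SE 0.24, adjusted p = 3.26e-05).

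The call for Scn3b depended on scaling. With each library rescaled to the same FPKM sum its difference was 0.12 (adjusted p = 0.661), while the median of all genes moved to -0.43; with quantile normalization it was 0.73 (adjusted p = 0.00175), with a median of all genes of 0.16. Relative to the median of all genes, Scn3b was higher in SGCs by 0.68 as deposited, 0.57 after quantile normalization and 0.55 after rescaling. Among all genes called, the share higher in SGCs was 37.7% as deposited, 57.9% after quantile normalization and 11.9% after rescaling.

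Neuron markers moved with these genes, and their part in the drop was not tested. The mean SGC level as a share of the mean DRG level was 3.64% for Scn1a, 5.58% for Scn4b, 9.04% for Scn9a, 9.99% for Scn10a, 11.0% for Scn2b, 11.1% for Scn11a, 12.5% for Scn8a and 14.3% for Scn3a. For 10 of the 11 neuron markers it was 0.827% to 8.71%, and for Map2, a dendritic microtubule protein, 71.5%. For Scn3b it was 152%, well outside the range of the other 8 sodium channel genes.

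Among other sodium channel genes 4 of 4 tested were lower in SGCs, beside 27.9% lower among all genes. Summed over 5 of the listed genes, without Scn2a, the level was 3.38 to 5.78 FPKM in SGCs and 49.9 to 68.6 FPKM in DRG. The DRG libraries alone could meet the filter of 1 FPKM in 4 libraries, so genes scarce in SGCs were favoured to come out lower. How far the count of 4 reflects that filter was not tested. Scn7a, an atypical sodium channel gene, averaged 3.33 FPKM in SGCs and 41.4 FPKM in DRG, a difference of -3.30 (SE 0.18, adjusted p = 6.89e-06 by limma). Scn2a and the leak channel gene Nalcn were lower by differences of -1.12 and -1.06.

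Of 18 genes for proteins that anchor, traffic or modulate sodium channels, 16 were tested, of which 11 were lower in SGCs, 1 was higher and 4 did not pass, beside 27.9% lower and 16.9% higher among all genes. Genes scarce in SGCs could meet the filter through DRG here too, and its part in the count of 11 was not tested. Fgf12 and Fgf13, intracellular FGF proteins that bind the channels' C termini, were lower by differences of -4.12 and -3.28. Ank3 (ankyrin G), which anchors channels at the initial segment and nodes, differed by -2.20, and S100a10 (p11), which brings Nav1.8 to the membrane in rat neurons, by -2.98. Nfasc and Cntnap1, of the node and its flanks, differed by -2.94 and -2.65.

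**Figure D1:**
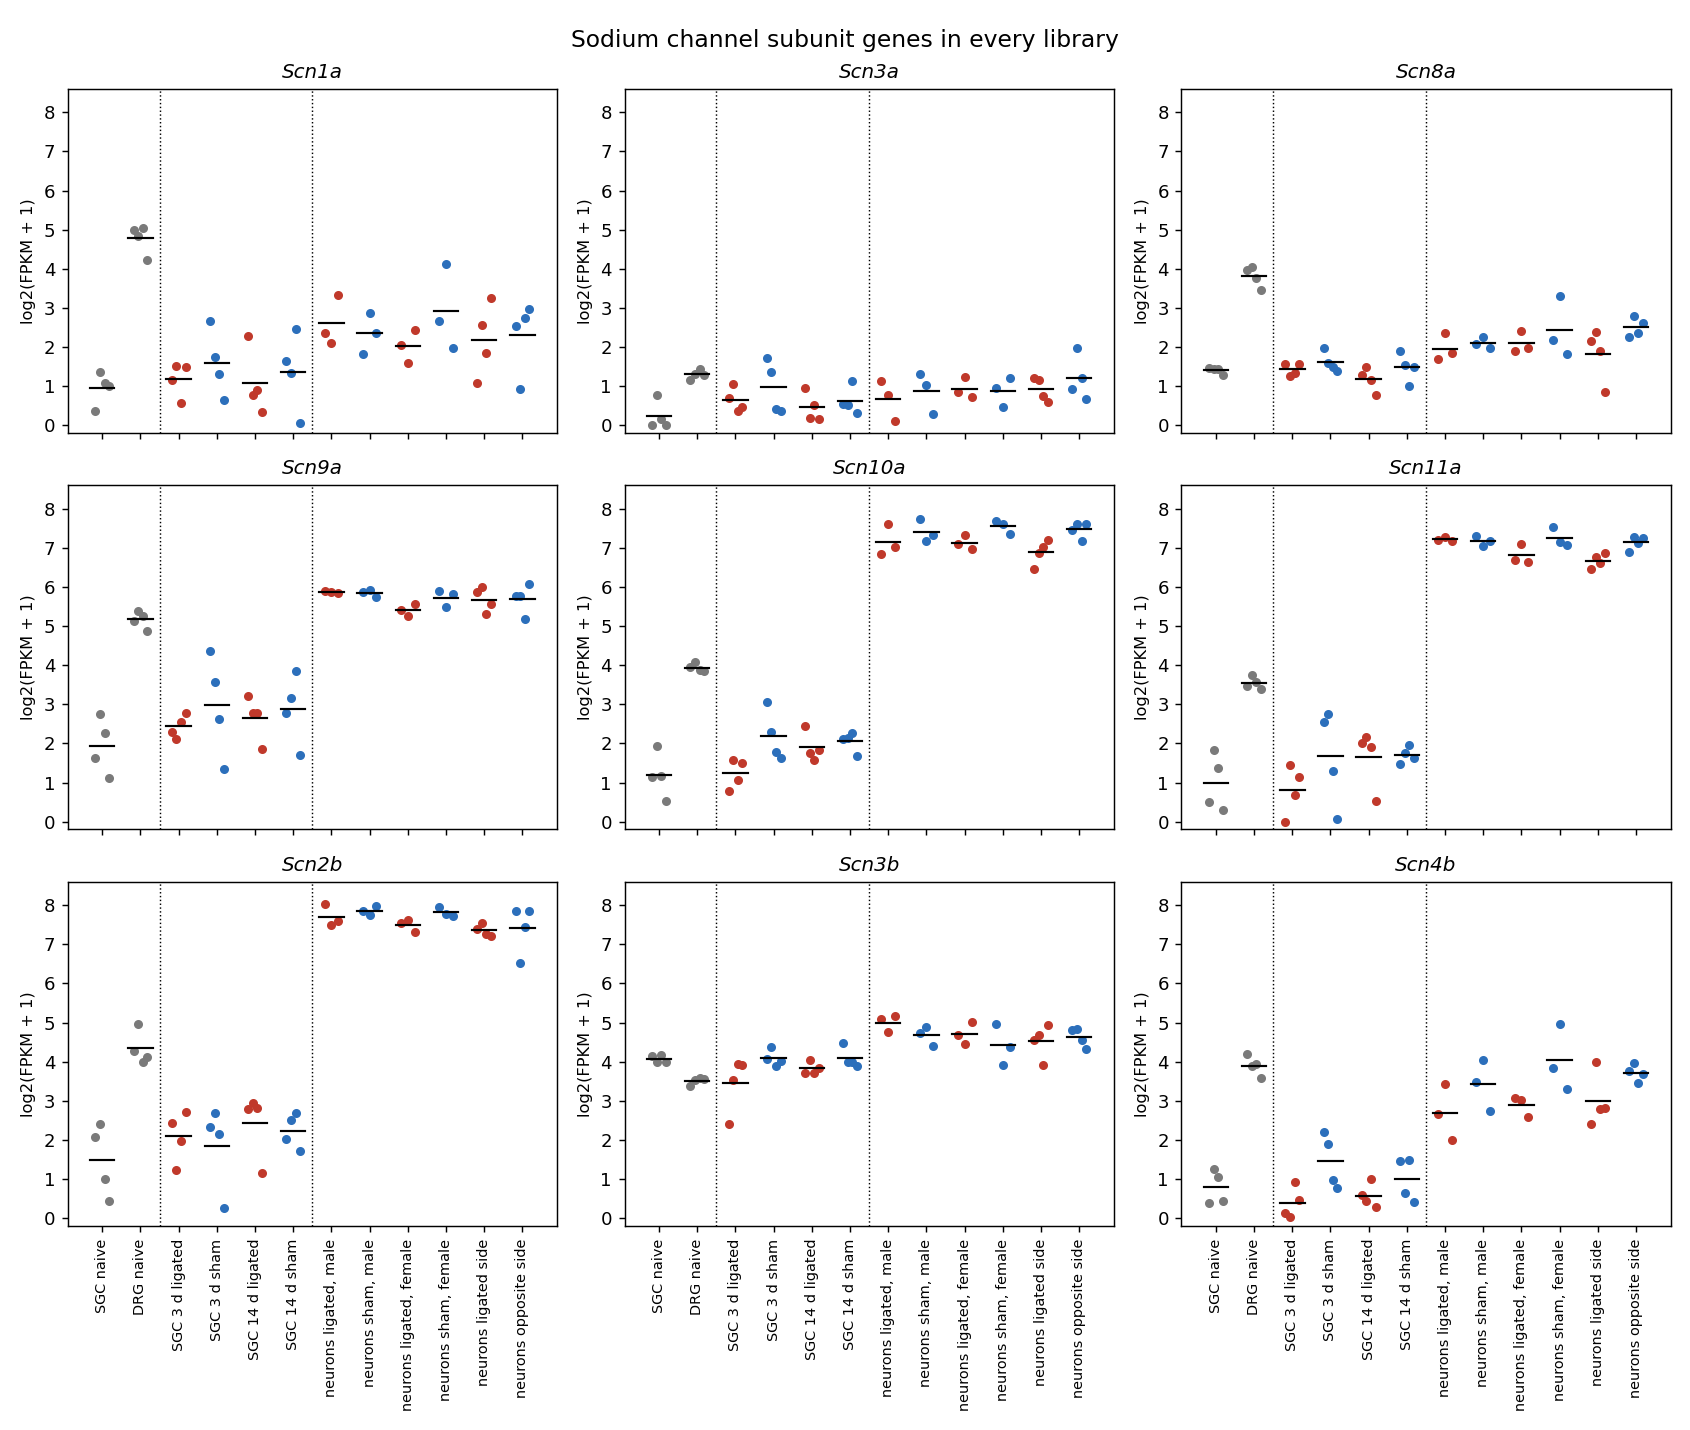
Level of each of the 9 genes, as log2(FPKM + 1), in every library of the 12 groups; grey points are naive samples, red points are ligated, blue points are sham or the opposite side, and bars are group means. Dotted lines part the 3 tables, which were scaled separately. Scn3b is the 1 gene with naive SGC points (14.9 to 17.0 FPKM) above the DRG points (9.41 to 11.0 FPKM).

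The mix of subunits set the preparations apart. Scn3b made up 72.5% to 95.5% of the summed level of the 3 beta genes in naive SGCs and 19.4% to 28.4% in DRG. In SGCs after surgery it was 48.8% to 94.4%, and in neurons 5.34% to 20.6%. Scn3b was the leading beta gene in all but 1 of 20 SGC libraries, and Scn2b led in neurons, where it held 68.4% to 90.6%. The serine-bearing channels Scn10a and Scn11a together held 73.3% to 86.8% of the summed alpha level in neurons, 22.6% to 28.4% in DRG and 8.69% to 49.8% in SGC libraries. Scn1a held 21.9% to 29.6% of the alpha sum in DRG and 0.218% to 4.06% in isolated neurons. Scn8a held 11.7% to 14.0% in DRG and 0.256% to 2.18% in neurons. Scn4b showed the same order among beta genes, with 25.3% to 38.3% in DRG and 1.29% to 11.6% in neurons. These preparations differ in fixation, ganglia, surgery and isolation, whose parts cannot be told apart.

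**Figure D2:**
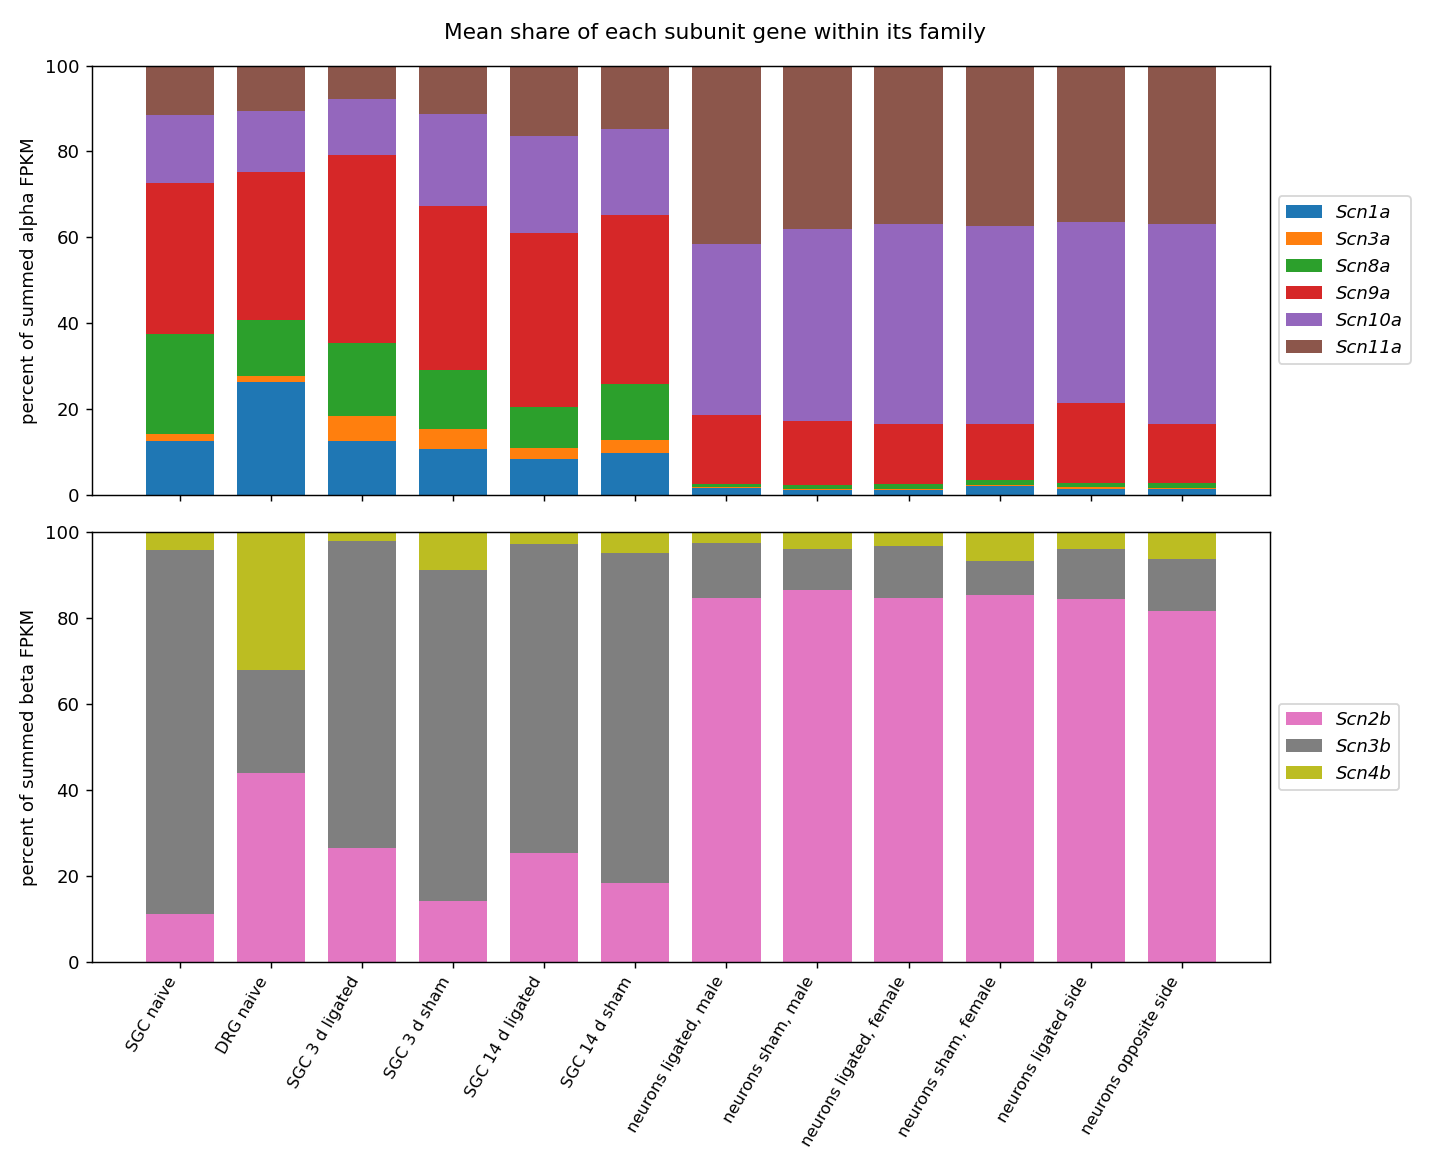
Mean share, in percent, of each gene in the summed FPKM of its family in each of the 12 groups, with alpha genes above and beta genes below. Scn10a and Scn11a fill most of the alpha bar in neurons (73.3% to 86.8% over libraries), and Scn3b most of the beta bar in SGCs.

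The next comparisons ask whether sodium channel transcripts in sorted SGCs changed 3 or 14 days after full ligation. At 3 days none of the 9 genes passed limma's adjusted p of 0.05, where 0.0646% of 13924 genes passed (0.0431% higher and 0.0215% lower); 3 of 9 were under an unadjusted p of 0.05, as were 9.11% of all genes. The difference was negative for 8 of 9 genes, all but Scn2b, and for 51.4% of all genes, with a median of -0.54 against -0.01 for all genes. Scn10a had 0.736, 1.96, 1.11 and 1.82 FPKM in ligated SGCs and 7.40, 3.90, 2.47 and 2.09 FPKM in sham SGCs. Its groups did not overlap, as for 2% of all genes in that direction, and the difference was -0.96 (95% interval -1.63 to -0.29, adjusted p = 0.358 by limma). In the authors' deposited table, which was computed with DESeq2, Scn10a had a log2 fold change of -1.50 (SE 0.46, adjusted p = 0.0719), and none of the 9 genes passed 0.05, where 1.01% of the lines with an adjusted p did.

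Scn4b had 0.0892, 0.0157, 0.908 and 0.370 FPKM in ligated SGCs at 3 days and 3.59, 2.73, 0.949 and 0.711 FPKM in sham SGCs. The groups overlapped, at a difference of -1.08 (SE 0.37, adjusted p = 0.382 by limma), and the authors' deposited table gave -2.59 (SE 0.89, adjusted p = 0.141). Scn4b reached 1 FPKM in 4 of 16 SGC libraries after surgery, all of them sham, so it entered the test through sham libraries alone. That favoured a negative difference for Scn4b at 3 and at 14 days, which adds nothing to the counts of negative genes. Scn3b had 4.27, 10.7, 14.3 and 14.0 FPKM in ligated SGCs and 15.9, 19.6, 13.8 and 15.1 FPKM in sham SGCs. The first ligated library was the lowest of the 16 for Scn3b and the one listed at 0 for Scn11a. The Scn3b difference was -0.64 (SE 0.28, adjusted p = 0.513 by limma) with that library and -0.29 (SE 0.18, adjusted p = 0.686) without it; over the alternatives tried, its adjusted p ranged from 0.426 to 0.820.

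Scn9a varied widely among sham libraries. It had 3.92, 3.34, 4.89 and 5.80 FPKM in ligated SGCs at 3 days and 19.5, 10.9, 5.17 and 1.53 FPKM in sham SGCs, which enclosed the ligated range. The difference was -0.54 with a 95% interval of -1.73 to 0.65. Scn11a had 0, 1.72, 0.612 and 1.22 FPKM in ligated SGCs and 4.89, 5.76, 1.45 and 0.0525 FPKM in sham SGCs. Scn1a had 1.23, 1.87, 0.481 and 1.81 FPKM in ligated SGCs and 5.39, 2.34, 1.49 and 0.564 FPKM in sham SGCs. For these genes too the first 2 sham libraries were the highest and the last the lowest of the sham group. Scn8a had 1.96, 1.41, 1.52 and 1.98 FPKM in ligated SGCs and 2.90, 2.00, 1.83 and 1.62 FPKM in sham SGCs. Scn2b, the 1 gene with a positive difference, had 4.40, 1.37, 2.92 and 5.52 FPKM in ligated SGCs and 3.99, 5.39, 3.42 and 0.188 FPKM in sham SGCs. Its lowest value was the fourth sham library, which also had the lowest neuron marker sum. The difference for Scn11a was -0.85 (-1.99 to 0.29); it was for Scn1a -0.41 (-1.56 to 0.74), for Scn3a -0.32 (-1.02 to 0.39), for Scn8a -0.17 (-0.67 to 0.33) and for Scn2b 0.24 (-0.88 to 1.36). All 6 intervals include 0. In the same libraries 4 of 7 genes of the neuronal nerve injury response were called higher, among them the transcription factor Atf3, by 3.36 (SE 0.51, adjusted p = 0.0331 by limma). These calls were not stable: 0 of 7 were called without the filter, with only the groups compared, with the replicate block, or without sham library 2, sham library 3, ligated library 3 or ligated library 4, with smallest adjusted p of 0.0617 to 0.136. All 7 differences stayed positive under those settings, and 6 of 7 were under an unadjusted p of 0.05.

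At 14 days none of the 9 genes passed either, by limma or in the authors' deposited table, and none was under an unadjusted p of 0.05; 0.00718% of all genes passed, 5.16% were under the unadjusted threshold, and 1.05% of the lines passed in the deposited table. The difference was again negative for all but Scn2b, and for 52.2% of all genes, with a median of -0.22 against -0.02 for all genes. Scn10a had 4.42, 2.38, 1.97 and 2.58 FPKM in ligated SGCs and 3.31, 3.43, 3.84 and 2.19 FPKM in sham SGCs, with overlap and a difference of -0.15 (95% interval -0.82 to 0.52). Scn3b had 12.1, 15.6, 12.2 and 13.2 FPKM in ligated SGCs and 21.3, 15.0, 14.8 and 13.9 FPKM in sham SGCs, a difference of -0.26 (-0.86 to 0.33). Scn9a had 8.24, 5.83, 5.91 and 2.60 FPKM in ligated SGCs and 5.84, 8.01, 13.4 and 2.24 FPKM in sham SGCs, a difference of -0.22 (-1.41 to 0.98). Scn2b had 5.86, 6.65, 6.10 and 1.23 FPKM in ligated SGCs and 3.04, 4.68, 5.475 and 2.27 FPKM in sham SGCs, so that 3 ligated libraries were above and 1 was below all sham libraries. Its difference was 0.19 (-0.93 to 1.31). The differences were -0.30 for Scn1a, -0.17 for Scn3a, -0.31 for Scn8a, -0.05 for Scn11a and -0.42 for Scn4b. Limma called 0 of 7 nerve injury response genes at 14 days, and 2 of 7 with array weights; their differences were 1.81 to 4.37 and all 7 were under an unadjusted p of 0.05, and the authors' deposited table had 6 of 7 higher in ligated SGCs. Among the listed other sodium channel genes 0 of 3 tested were called at 3 days and 0 of 3 at 14 days, and among channel partners 0 of 15 tested at each time. The ligation difference at 14 days minus that at 3 days was 0.81 for Scn10a (95% interval -0.14 to 1.76, adjusted p above 0.99 by limma), and no sodium channel gene passed that test, in which 0.00718% of genes did.

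**Figure D3:**
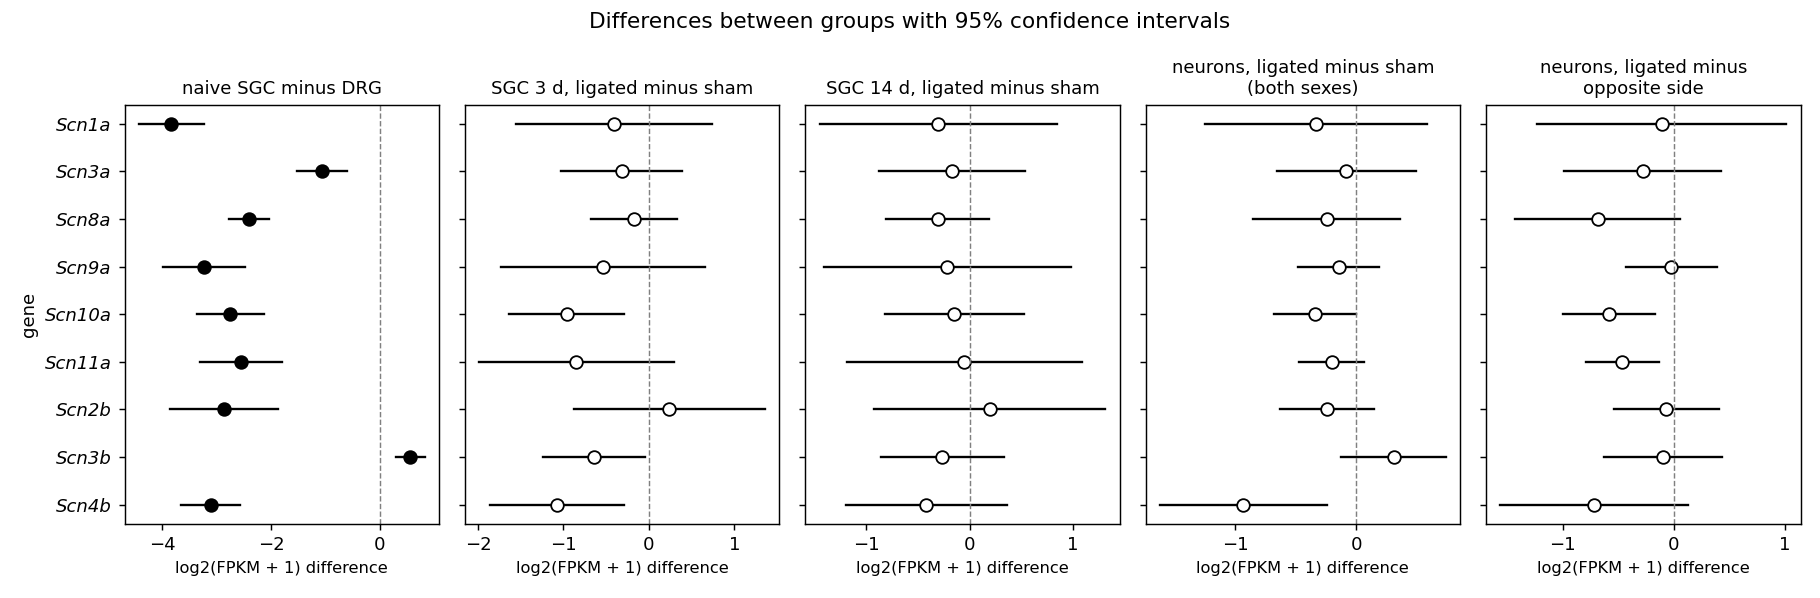
Differences in log2(FPKM + 1) with 95% confidence intervals for the 9 genes in 5 comparisons; filled points passed limma's adjusted p of 0.05. All 9 passed in naive SGC minus DRG, with Scn3b on the positive side at 0.56, and none passed after ligation.

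Neuron markers varied across SGC libraries. The neuron marker sum was 401 to 672 FPKM in ligated SGCs and 176 to 780 FPKM in sham SGCs at 3 days, and 261 to 732 FPKM in ligated and 212 to 465 FPKM in sham SGCs at 14 days. No neuron marker was at 0 in any SGC library. In the sham libraries at 3 days Scn9a and the marker sum had the same order, from 19.5 FPKM with a marker sum of 780 FPKM down to 1.53 FPKM with 176 FPKM. Scn3b stayed at 13.8 to 19.6 FPKM in those 4 libraries. The orders of Scn9a and the marker sum also matched at 14 days, in ligated and in sham SGCs. They did not match in naive SGCs or in ligated SGCs at 3 days. Over the 16 SGC libraries after surgery, the highest value was 4.99 times the lowest for Scn3b, 12.8 times for Scn9a and 35.4 times for Scn2b. The part of neuronal RNA in the SGC values was not tested.

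**Figure D4:**
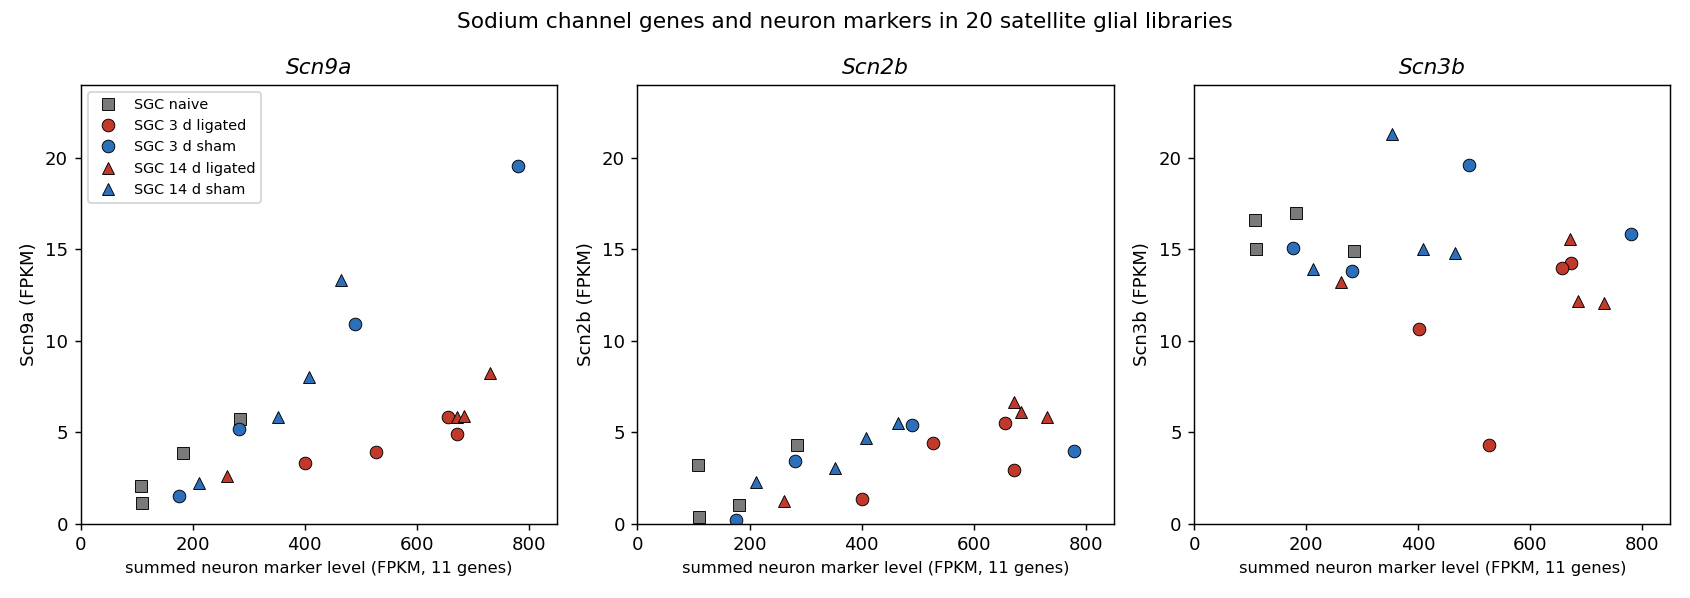
FPKM of Scn9a, Scn2b and Scn3b against the summed FPKM of 11 neuron markers in the 20 SGC libraries; squares are naive, circles 3 days and triangles 14 days after surgery, with ligated libraries red and sham libraries blue. At 3 days the ligated points of Scn9a, at 3.34 to 5.80 FPKM, lie under the 2 sham points with the highest marker sums of that day, at 10.9 and 19.5 FPKM, while Scn3b has a median of 14.1 FPKM over the 16 libraries after surgery.

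In neurons 8 days after partial ligation, tested against sham over both sexes, no sodium channel gene passed limma's adjusted p of 0.05; 0.28% of 12145 genes did, and 1 of 9 members, Scn4b, was under an unadjusted p of 0.05, as were 3.58% of all genes. The difference was negative for 8 of 9 genes, including all 6 alpha genes, with a median of -0.24 against -0.04 for all genes; 56.9% of all genes had a negative difference. Scn4b had 5.36, 9.80 and 2.99 FPKM in ligated males, 7.48, 7.12 and 5.03 FPKM in ligated females, 10.1, 15.6 and 5.71 FPKM in sham males and 13.3, 30.4 and 8.87 FPKM in sham females. The ligated values lay mostly below the sham values, with overlap, at a difference of -0.93 (SE 0.33, adjusted p = 0.772). In the authors' deposited table Scn4b had a log2 fold change of -0.73 (SE 0.22, adjusted p = 0.0462), the 1 sodium channel gene past 0.05 there, where 237 of 13926 lines with an adjusted p (1.7%) passed.

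Scn10a had 112.9, 194.0 and 129.1 FPKM in ligated males, 137.2, 158.6 and 124.9 FPKM in ligated females, 211.3, 144.4 and 159.6 FPKM in sham males and 204.3, 194.4 and 163.6 FPKM in sham females. The groups overlapped, with ligated libraries up to 194.0 FPKM and sham libraries down to 144.4 FPKM, at a difference of -0.34 (SE 0.16, 95% interval -0.68 to 0.00, adjusted p = 0.999 by limma). The authors' deposited table gave -0.37 (SE 0.11, adjusted p = 0.0669). Scn11a, the other resistant channel, differed by -0.20 (-0.47 to 0.06) and Scn9a by -0.14 (-0.48 to 0.19). For Scn2b the difference was -0.24 (-0.63 to 0.15), for Scn8a -0.24 (-0.85 to 0.36), for Scn1a -0.33 (-1.24 to 0.59) and for Scn3a -0.08 (-0.66 to 0.50). Scn3b alone was positive, at 0.31 (-0.12 to 0.74). It had 32.9, 25.9 and 34.8 FPKM in ligated males, 24.5, 20.95 and 31.5 FPKM in ligated females, 25.7, 28.8 and 20.2 FPKM in sham males and 30.3, 14.0 and 19.6 FPKM in sham females. The 3 highest values were from ligated libraries and the 3 lowest from sham libraries, with the rest mixed. Scn9a had 58.5, 57.2 and 56.1 FPKM in ligated males, 41.3, 37.0 and 46.7 FPKM in ligated females, 57.2, 59.1 and 52.2 FPKM in sham males and 58.2, 43.6 and 55.2 FPKM in sham females, with overlap in each sex. None of the 5 other sodium channel genes tested and none of the 16 partners tested was called. In the same libraries 6 of 7 nerve injury response genes were called higher, among them the neuropeptide gene Npy, by 5.16 (SE 0.47, adjusted p = 1.14e-05).

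By sex, no member passed in males, where 0.00823% of genes did, or in females, where 0.148% did; 0 of 9 in males and 2 of 9 in females were under an unadjusted p of 0.05, beside 2.65% of all genes in males and 2.52% in females. In females Scn10a, Scn2b and Scn4b were lower in every ligated library than in every sham library, as were 3.24% of all genes. Scn2b had 186.8, 195.9 and 158.0 FPKM in ligated females and 247.1, 218.2 and 212.0 FPKM in sham females, and 260.8, 178.5 and 193.9 FPKM in ligated males and 231.5, 214.7 and 249.2 FPKM in sham males, where the groups overlapped. Scn11a had 102.6, 135.2 and 98.5 FPKM in ligated females and 183.0, 142.1 and 132.8 FPKM in sham females, a difference of -0.44 (SE 0.18, adjusted p = 1 by limma), against 0.04 (SE 0.18) in males. The ligation difference in males minus that in females was 0.48 for Scn11a (95% interval -0.05 to 1.01) and passed for none of the 9 genes; 0% of 12145 genes passed it by limma, and 130 genes were at an unadjusted p under 0.05.

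In ligated mice, all 9 differences between the ligated and the opposite side were negative, as were 51.2% over all genes, with a median of -0.28 against -0.01 for all genes, and none passed limma's adjusted p of 0.05; 0.667% of genes did (0.659% higher and 0.00823% lower), and 2 of 9 members were under an unadjusted p of 0.05, as were 9.85% of all genes. Scn11a had 87.1, 107.2, 97.0 and 116.2 FPKM on the ligated side and 119.0, 154.5, 138.0 and 151.2 FPKM on the opposite side. Every ligated-side library was below every opposite-side library, as for 1.78% of all genes, at a difference of -0.46 (SE 0.16, adjusted p = 0.263). Scn10a had 86.4, 115.7, 129.8 and 145.8 FPKM on the ligated side and 175.9, 195.9, 144.2 and 195.6 FPKM on the opposite side. Only the highest ligated-side and lowest opposite-side libraries crossed, at a difference of -0.59 (SE 0.20, adjusted p = 0.264).

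Summed over the 6 alpha genes, the level was 237 to 318 FPKM on the ligated side and 329 to 426 FPKM on the opposite side, without overlap. Scn10a and Scn11a held 73.3% to 83.7% of that sum on the ligated side and 81.4% to 85.8% on the opposite side. The sum thus mostly restates those 2 genes, and it was not tested. Scn9a overlapped between the sides. It had 57.3, 62.7, 38.3 and 46.1 FPKM on the ligated side and 53.3, 53.8, 35.4 and 66.4 FPKM on the opposite side, a difference of -0.02 (95% interval -0.43 to 0.39). Scn8a had 3.49, 4.23, 2.75 and 0.815 FPKM on the ligated side and 3.79, 5.98, 4.17 and 5.14 FPKM on the opposite side, a difference of -0.68 (-1.43 to 0.06). For Scn4b the difference was -0.72 (-1.56 to 0.12), with 1 ligated-side library at 14.8 FPKM and the others at 4.30 to 6.05 FPKM, against 9.99 to 14.6 FPKM on the opposite side. Scn2b had 167, 187, 152 and 149 FPKM on the ligated side and 231, 91.0, 174 and 231 FPKM on the opposite side, where 1 library was the lowest of all 20 neuron libraries. Scn3b had 22.7, 24.6, 14.2 and 29.9 FPKM on the ligated side and 27.1, 27.4, 22.3 and 18.9 FPKM on the opposite side, with the ligated side enclosing the other. Scn2b and Scn3b differed by -0.07 (-0.54 to 0.41) and -0.10 (-0.63 to 0.43). All 7 injury response genes were called higher on the ligated side. Haemoglobin RNA summed to 8489 to 18901 FPKM on the ligated side and 3359 to 15444 FPKM on the opposite side, and its part in these values was not tested.

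The order of levels among the genes was stable in neurons. Scn2b came first in each of the 6 neuron groups by mean, followed by Scn10a and Scn11a, whose ranges overlapped in every group, then Scn9a, Scn3b and Scn4b. Scn2b was apart from the next gene in 4 of 6 groups, and Scn9a was apart from Scn10a, Scn11a and Scn3b in all 6. Over the 20 neuron libraries, the lowest, median and highest levels were 91.0, 195 and 261 FPKM for Scn2b, 86.4, 152 and 211 FPKM for Scn10a, and 87.1, 137 and 183 FPKM for Scn11a. They were 35.4, 54.5 and 66.4 FPKM for Scn9a, 14.0, 25.2 and 34.8 FPKM for Scn3b and 2.99, 9.33 and 30.4 FPKM for Scn4b. Scn1a (0.901, 4.27 and 16.5 FPKM), Scn8a (0.815, 3.52 and 8.86 FPKM) and Scn3a (0.0722, 0.929 and 2.90 FPKM) closed the list, and their ranges overlapped. With the 6 neuron groups ordered by their mean for any 1 gene, neighbouring groups overlapped throughout. Groups further apart in that order did not always overlap. Scn11a was apart between the ligated and the opposite side. Scn9a was apart between ligated males (56.1 to 58.5 FPKM) and ligated females (37.0 to 46.7 FPKM). So was Scn11a, at 143.4 to 154.3 FPKM in ligated males and 98.5 to 135.2 FPKM in ligated females. The share of all genes apart between these groups is not given here, and levels were not tested between sexes. In each of the 5 SGC groups Scn3b had the highest mean and Scn9a the second. Their ranges were apart in naive SGCs and at 14 days, ligated and sham, and overlapped in both groups at 3 days.

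Likeness was measured over the 20 neuron libraries as the root mean square difference in centred log2(FPKM + 1). The genes closest to Scn10a were Atg9a (0.14), Cds2 (0.19) and Epb4.1l3 (0.19), against an SD of 0.33 for Scn10a itself. Ckap5 (0.14), Acpp (0.16) and Scg3 (0.16) were closest to Scn11a, with an SD of 0.27. Closest to Scn2b were C330006A16Rik (0.16), Gnb1 (0.16) and Tmod2 (0.18), with an SD of 0.34. Scn9a was nearest to Palmd (0.18), Hsp90b1 (0.20) and Pitpnc1 (0.21), with an SD of 0.25, and Scn3b to Sgcb (0.22), Fam63a (0.24) and Pgpep1 (0.25), with an SD of 0.34. The scarcer genes had larger distances to their closest gene and also larger SDs. These were Prrx2 (0.44) for Scn1a, with an SD of 0.74, and Ppp1r15a (0.26) for Scn3a, with an SD of 0.40. Brpf1 (0.29) was closest to Scn8a, with an SD of 0.47, and Nfic (0.44) to Scn4b, with an SD of 0.68. No sodium channel gene was among the 3 closest genes of another.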

How the data were processed

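STAR, Cufflinks, SAMtools, DESeq2 and the mouse build mm10 are named in the submitters' processing notes; versions are not given in the sources used here. The authors deposited expression as FPKM in 3 tables (8 naive libraries, 16 SGC libraries after surgery and 20 neuron libraries), scaled separately; the naive table writes decimal commas and was read as FPKM. Lines sharing an identifier were summed. The 3 deposited comparison tables used here give, per the file headers, log2 fold changes, standard errors, p-values and adjusted p-values; their fold changes are printed with the sign turned, since 121 of 122, 152 of 153 and 223 of 223 genes past 0.05 went the other way in FPKM, and they do not say which libraries entered. Read depth was not used here, as FPKM keeps no counts.

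Per table, log2(FPKM + 1) was fitted with limma 3.58.1 (R 4.3.3, trended variance, Benjamini-Hochberg over all genes tested, two-sided), with all groups of a table in 1 fit. Genes needed 1 FPKM in at least 4 libraries (naive, SGC) or 3 (neurons); all 9 sodium channel genes passed in each table. The fit was tested on simulated data with changes only in genes of mean log2(FPKM + 1) above 3, so that test does not cover scarce genes. All 9 genes are named, with the 3 most alike genes for each over the neuron libraries; for other sodium channel genes, channel partners and cell type markers, lists were used. The members and lists were chosen with earlier results of these data known. Positions and pore-loop sequences came from GENCODE M21 (GRCm38); the loci that the files give for the 9 genes overlap it. Alternatives were another pseudocount, filter or normalization, array weights, only the groups compared, a replicate block and leaving out each library. Some genes of these lists, and the pore-loop sequence of 1 alpha gene, are not reported here.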

Additional observations from a re-analysis of the deposited data

Results flagged for a closer look

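Within groups of 4 libraries, 72 sets of values (9 genes in 8 groups) were searched for 1 library far from the others, and 6 stood out; chance gives about 1 in 20 such sets. In naive SGCs the second library had 0.720 FPKM of Scn3a against 0 to 0.115 FPKM in the others, and the fourth had 1.44 FPKM of Scn8a against 1.72 to 1.73 FPKM. In SGCs 14 days after ligation the first library had 3.90 FPKM of Scn1a and the fourth 1.23 FPKM of Scn2b, against 5.86 to 6.65 FPKM of Scn2b in the others. In SGCs 14 days after sham surgery the first library had 21.3 FPKM of Scn3b. In neurons of the ligated side 1 library had 14.8 FPKM of Scn4b. For none of the 9 genes did the ligation difference itself differ between sexes or between days at limma's adjusted p of 0.05. Levels were not tested between sexes or between days.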

How the results depend on the processing

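No alternative gave a sodium channel gene called after surgery, and 8 or 9 of the 9 were called in naive SGC against DRG; Scn3a was not tested at 5 FPKM or without 1 DRG library. In naive SGCs the replicate block left all 9 called, with 5187 genes in all against 5789. Same-numbered SGC libraries did not deviate together (correlations of -0.08 to 0.19; 2 of 4 naive pairs, 0 of 4 at 3 days and 1 of 4 at 14 days correlated best with their own number), so numbers were not taken as pairs. No paired analysis was possible because neuron columns carry no replicate numbers. Counts over all genes moved: at 3 days from 9 to 14 (pseudocount 0.1), 1 (no filter), 5 (rescaled), 5 (array weights), 4 (only the groups compared) and 1 (replicate block), and to 1 to 6 without 1 library; at 14 days from 1 to 0 (rescaled), 10 (array weights), 2 (only the groups compared) and 1 to 2 without 1 library; the difference between days had 1, and 1 to 4 without 1 library. In males the count of 1 became 0 (pseudocount 0.1), 2 (quantile), 0 (only the groups compared) and 0 to 4 without 1 library; in females 18 became 35 (array weights), 5 (only the groups compared) and 7 to 17 without 1 library; over both sexes 34 became 31 to 48 under the other settings (42 with quantile, 48 with array weights) and 21 to 39 without 1 library; between sexes 0 became 0 to 1 without 1 library, and between sides 81 became 30 (only the groups compared) and 62 to 119 without 1 library. Uncalled differences changed sign with array weights for Scn11a at 14 days (0.080) and Scn9a between sides (0.084), and without 1 library for Scn2b at 3 days (-0.29 to 0.52), for Scn1a (-0.74 to 0.057), Scn9a (-0.61 to 0.11) and Scn11a (-0.22 to 0.32) at 14 days, for Scn3a in neurons (-0.23 to 0.060), and between sides for Scn1a (-0.57 to 0.26), Scn9a (-0.19 to 0.11), Scn2b (-0.37 to 0.079) and Scn3b (-0.24 to 0.11). The cause was not tested. FPKM without counts sets no depth limit for the genes near 0.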

Other observations

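Set against the neuron markers of the same library, a measure chosen after its values were seen, the alpha genes were lower in ligated than in sham SGC libraries at both times. At 3 days the summed alpha level per 1000 FPKM of neuron markers was 16.1, 28.4, 13.2 and 19.8 FPKM in ligated SGCs and 54.4, 54.0, 45.2 and 34.8 FPKM in sham SGCs. At 14 days this ratio was 30.0, 21.3, 19.2 and 25.7 FPKM in ligated SGCs and 45.9, 43.3, 57.6 and 40.6 FPKM in sham SGCs. By this ratio ligated and sham libraries did not overlap at either time. The ligated median was 36.2% of the sham median at 3 days and 52.7% at 14 days. The denominator moved as well: Stmn2, a neuronal tubulin-binding protein and 1 of the 11 markers, was 157 to 352 FPKM in ligated and 48.1 to 201 FPKM in sham SGCs at 3 days. At 14 days Stmn2 was 121 to 329 FPKM in ligated and 73.5 to 128 FPKM in sham SGCs. The median marker sum without Stmn2 was 302 FPKM in ligated and 284 FPKM in sham SGCs at 3 days. At 14 days that median was 396 FPKM in ligated and 275 FPKM in sham SGCs. Without Stmn2, left out after its values were seen, the ratio was 27.8 to 46.6 FPKM in ligated and 47.9 to 74.2 FPKM in sham SGCs at 3 days, and 33.8 to 54.5 FPKM in ligated and 60.9 to 79.4 FPKM in sham SGCs at 14 days, with medians at 48.4% and 66.2% of sham. The ratio was 48.8 to 66.6 FPKM in naive SGCs and 29.2 to 39.6 FPKM in DRG without Stmn2. In neurons it overlapped between ligated and sham libraries in males (48.0 to 67.5 against 44.98 to 75.9 FPKM) and not in females (36.9 to 55.1 against 55.9 to 60.3 FPKM). No test was made of a ratio picked this way, and the share of other genes apart by such a ratio is not given here.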
